A study of Homo sapiens with 6 samples.

Results

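The miR-221 and miR-222 cluster was described in Huh7 cells, a human hepatoma cell line, by its 4 mature products: hsa-miR-221-3p, hsa-miR-222-3p, hsa-miR-221-5p and hsa-miR-222-5p. They were found by name among the 2588 mature human miRNAs of the deposited expression table. The overexpression group (3 samples) received a PLC5-CIR plasmid carrying hsa_circ_0098181, a circular RNA from the SOX5 gene, and the control group (3 samples) received the control plasmid. Both groups were transfected with Lipofectamine 2000 and collected after 48 h, so that the transfection itself is shared by all samples. The question of the sequencing was which miRNAs change when this circular RNA is raised. The labels do not say whether the replicates were separate cultures, so that the p-values measure the spread between these samples, which may be technical.

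A miRNA guides Argonaute to messenger RNAs mainly through its seed, a short stretch near its 5′ end, and 2 miRNAs with the same seed can repress the same targets. miR-221 and miR-222 are made from neighbouring hairpins of a single primary transcript. Each hairpin gives a product from its 3′ arm, which is the usual guide strand, and a product from its 5′ arm, which is mostly degraded. The guide strands are known oncomiRs of hepatocellular carcinoma. Their known targets include CDKN1B and CDKN1C, which encode the cell cycle inhibitors p27 and p57, TIMP3, an inhibitor of metalloproteinases, and KIT, a receptor tyrosine kinase.

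The guide strands are shown first because their shared seed is what joins them, with miR-222-5p beside them. The sequences are those of RefSeq (GRCh38.p14), written 5′ to 3′ with the seed (bases 2 to 8) in capitals, and 3 of the 4 members were matched.
hsa-miR-221-3p: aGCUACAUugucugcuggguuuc
hsa-miR-222-3p: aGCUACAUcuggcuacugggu
hsa-miR-222-5p: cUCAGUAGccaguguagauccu
The guide strands were identical over their first 8 bases, and their seed GCUACAU was found in no other of the 2370 mature names that the RefSeq table holds, which is fewer than the miRNAs of the expression table. After these bases they diverged. Without gaps, 11 of the 21 positions of the shorter miR-222-3p were identical to miR-221-3p, and the longest run shared beyond the 5′ end was CUGGGU (6 bases), which starts at base 15 of miR-221-3p and base 16 of miR-222-3p. The seed of miR-222-5p was shared with no other mature name of the RefSeq table. Pairs of G with U were not counted in comparing the opposite arms of the miR-222 hairpin. These arms are shown again with the longest run that pairs by A with U and G with C alone, 10 bases, in capitals.
hsa-miR-222-5p: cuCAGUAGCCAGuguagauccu
hsa-miR-222-3p: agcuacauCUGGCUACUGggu

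Both precursors lie on the minus strand of chromosome X in GENCODE release 29 (GRCh38). MIR222 (ENSG00000207725.3, 45747015 to 45747124) is upstream, and MIR221 (ENSG00000207870.1, 45746157 to 45746266) follows after 748 bases. Each precursor is 110 bases long. They are intronic: both lie in the single intron (45746101 to 45769785) of transcript MIR222HG-201 of the non-coding host gene MIR222HG (ENSG00000270069.1, 45745211 to 45770274). MIR221 ends 56 bases before the last exon of this transcript. The mature products in RefSeq are at 45746180 to 45746202 for miR-221-3p, 45747036 to 45747056 for miR-222-3p and 45747073 to 45747094 for miR-222-5p.

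The match of the shared seed was also located in the 3′UTRs of the known targets named above, as a description of the sequence alone. The letters searched were ATGTAGC, on the transcript strand, in the longest annotated 3′UTR of each gene in GENCODE release 29. CDKN1B is shown because its 3′UTR (1344 bases, transcript CDKN1B-201) held the match 2 times, with the matched bases in capitals.
CDKN1B, chr12:12721228-12721234: taaaagcgttggATGTAGCatta
CDKN1B, chr12:12721301-12721307: tttttaccttttATGTAGCacat
They start 201 and 274 bases after the stop codon. Of the 8268 genes with a 3′UTR at least as long, 6.46% held the match in the same length and 0.278% held it 2 or more times. The 3′UTR of CDKN1C (703 bases) held 1 match (3.26% of 3′UTRs in the same length), that of TIMP3 (3666 bases) 1 match (17.8%), and that of KIT (2158 bases) 2 matches (10.5% with any match and 0.692% with 2 or more). Neither messenger RNA nor hsa_circ_0098181 itself was measured in these libraries.

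The libraries held 7144798 to 10786295 counts (median 8379124), and edgeR's filter on low counts kept 552 miRNAs, all 4 members among them. Counts are given here with the deposited TPM, which is the count divided by the library total and put on a fixed scale, without a correction for length or composition. As a check of the cell line, the hepatocyte miRNAs miR-122-5p, miR-192-5p, miR-194-5p and miR-148a-3p together made 422224 to 434247 TPM with hsa_circ_0098181 and 403377 to 435127 TPM in the controls. The 5 blood miRNAs summed to 13.3 to 14.3 TPM with hsa_circ_0098181 and 16.97 to 19.1 TPM in the controls, and the 6 stromal and muscle miRNAs to 117 to 124 TPM and 125 to 134 TPM. Both of these sums were lower in all 3 overexpression samples, but their miRNAs did not move one way. The blood sum was carried by miR-142-3p, with means of 9.23 TPM and 14.1 TPM, while miR-142-5p, miR-223-3p and miR-150-5p had higher means with hsa_circ_0098181 (0.445, 2.02 and 1.495 TPM against 0.216, 1.52 and 1.22 TPM). In the other list, miR-143-3p made most of the sum (81.8 and 90.2 TPM), and miR-199a-3p (33.0 and 32.3 TPM) and miR-214-3p had higher means with hsa_circ_0098181. Their part in the results was not tested. None of their 11 miRNAs was at 0 in all samples. The endothelial miR-126 products summed to 4178 to 4341 TPM and 3811 to 4292 TPM. Control replicate 3 stood apart. Over 295 abundant miRNAs, its median absolute log2 difference from control replicates 1 and 2 was 0.24 and 0.21, against 0.075 between those 2, and the fold changes and ratios that turn on it are also given without it. Within the groups, the counts of the 6 pairs of replicates differed beyond sampling noise (chi-square divided by its degrees of freedom from 31.9 to 301), and all were used as separate samples. In bulk RNA, fewer molecules per cell and fewer expressing cells cannot be told apart.

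The cluster was led by miR-221-3p, the guide strand of the downstream hairpin. Replicates 1 to 3 held 13138, 12544 and 13607 counts of it with hsa_circ_0098181, and 16330, 13415 and 12455 with the control plasmid. In TPM, these were 1647, 1481 and 1642 with hsa_circ_0098181 and 1514, 1546 and 1743 with the control plasmid. The highest value was that of control replicate 3 and the lowest that of overexpression replicate 2, and the groups overlapped. miR-221-3p ranked 52 of all miRNAs by the mean TPM, between miR-99b-5p (1650 TPM) and miR-454-3p (1563 TPM).

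miR-222-3p, the guide strand with the same seed, had far fewer reads. Different miRNAs are compared here by their reads, and their molecules were not counted. It was counted 787, 710 and 840 times in the overexpression samples and 1011, 871 and 965 times in the control samples. Its TPM was 98.6, 83.8 and 101 with hsa_circ_0098181 and 93.7, 100 and 135 with the control plasmid. Control replicate 3 was above the other 5 samples, which overlapped between the groups. It ranked 149, between miR-301a-3p (104 TPM) and miR-32-5p (102 TPM).

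The 5′ arm products were rare. miR-221-5p was counted 138, 110 and 124 times in the overexpression samples (17.3, 13.0 and 14.96 TPM) and 128, 129 and 107 times in the control samples (11.9, 14.9 and 14.98 TPM), and ranked 278, between miR-1278 (14.9 TPM) and miR-548j-5p (14.0 TPM). The lowest level was that of control replicate 1 and the highest that of overexpression replicate 1. miR-222-5p was counted 17, 21 and 28 times in the overexpression samples (2.13, 2.48 and 3.38 TPM) and 31, 16 and 5 times in the control samples (2.87, 1.84 and 0.700 TPM), and ranked 467, between miR-184 (2.29 TPM) and miR-3176 (2.21 TPM). The low value of control replicate 3 rests on 5 counts, for which the exact 95% Poisson interval was 0.227 to 1.63 TPM, which covers counting error only.

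**Figure D1:**
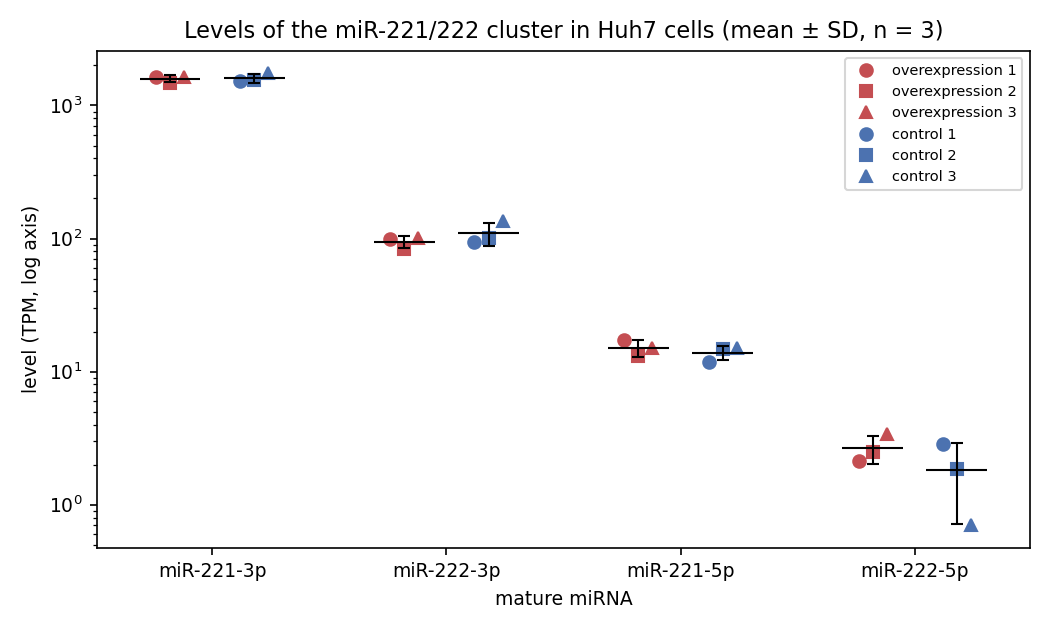
Levels of the 4 members in each library, in TPM on a log axis. Each point is a library, and black lines are the mean ± SD of 3 libraries. The 4 members occupy separate ranges, from 1481 to 1743 TPM for miR-221-3p down to 0.700 to 3.38 TPM for miR-222-5p, and the groups overlap for each of them.

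The order of the members was the same in all 6 libraries, since the ranges of neighbours in this order did not overlap. Over all samples, miR-221-3p made 93.1% of the 87527 counts of the cluster, miR-222-3p 5.92%, miR-221-5p 0.841% and miR-222-5p 0.135%. The counts of the cluster were 0.170% ± 0.0105 of the library with hsa_circ_0098181 and 0.173% ± 0.0146 with the control plasmid (SD, n = 3 each). The difference, -0.0024 percentage points, was smaller than the spread within either group. Its p was 0.9 in an exact permutation test (two-sided), whose lowest possible p in a design of 3 and 3 samples is 0.1. The pool of reads with the shared seed is given as mean ± SD (n = 3 each). It was 1684 ± 103 TPM with hsa_circ_0098181 and 1711 ± 146 TPM with the control plasmid. miR-221-3p made 94.2% to 94.6% of this pool with hsa_circ_0098181 and 92.8% to 94.2% with the control plasmid, where the lowest value was that of control replicate 3 and the other controls were at 93.9% and 94.2%.

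The comparison of the groups was made with edgeR's quasi-likelihood test after TMM normalization, which scales each library so that most miRNAs do not move, with Benjamini-Hochberg adjustment over all 552 miRNAs. None of the 4 members had an adjusted p under 0.05, and this held for 0 of all 552 miRNAs (0.0%). At an unadjusted p under 0.05 there were 0 members, against 50 miRNAs (9.06%). DESeq2 also called 0 miRNAs, with 41 at an unadjusted p under 0.05.

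miR-221-3p averaged 1653 ± 44.2 TMM-normalized CPM with hsa_circ_0098181 and 1536 ± 57.8 with the control plasmid (SD, n = 3 each). This gave a log2 fold change of 0.11 ± 0.082 (standard error) with a 95% confidence interval of -0.070 to 0.28 (edgeR, adjusted p = 0.655), a fold change of 1.08 with an interval of 0.952 to 1.22. On this scale every overexpression sample (1609 to 1697 CPM) was above every control sample (1498 to 1603 CPM). The nearest values, 1609 CPM in overexpression replicate 2 and 1603 CPM in control replicate 3, were closer than counting error. Counting alone gives a CV of 0.874% and 0.843% in these groups. Of the 4 members, miR-221-3p alone had separate groups, against 15.4% of the 552 miRNAs in either direction, 8.88% higher and 6.52% lower. In TPM, before TMM normalization, no member had separate groups, against 18.3% of the miRNAs, 1.99% higher and 16.3% lower. The direction of miR-221-3p depended on the scaling, since its log2 fold change became -0.010 when only the library size was used (edgeR, adjusted p = 0.972). The median of all miRNAs was -0.11 in that fit and 0.0038 after TMM normalization, so that miR-221-3p was 0.10 above the median in each.

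miR-222-3p averaged 98.3 ± 6.88 TMM-normalized CPM with hsa_circ_0098181 and 105 ± 16.8 with the control plasmid (SD, n = 3 each). The log2 fold change of -0.093 ± 0.13 (standard error) had a 95% confidence interval of -0.36 to 0.18 (edgeR, adjusted p = 0.799). This direction rested on control replicate 3, without which it had a log2 fold change of 0.027 (edgeR, adjusted p = 0.919). In that fit, 56 of 565 miRNAs (9.91%) had an adjusted p under 0.05, and none of the 4 members was among them. miR-221-3p had the lowest adjusted p of the members there, with a log2 fold change of 0.12 (adjusted p = 0.360 from edgeR).

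The passenger products had wider intervals. The products of the miR-221 and miR-222 5′ arms averaged 15.6 ± 1.63 and 2.78 ± 0.681 TMM-normalized CPM with hsa_circ_0098181, against 13.3 ± 1.35 and 1.76 ± 1.11 with the control plasmid (SD, n = 3 each). miR-221-5p had a log2 fold change of 0.24 ± 0.15 (standard error), with a 95% confidence interval of -0.085 to 0.56 (edgeR, adjusted p = 0.610). For miR-222-5p it was 0.58 ± 0.41 (standard error), with an interval of -0.30 to 1.46 (edgeR, adjusted p = 0.622). This interval spans a fold change of 0.813 to 2.75, and includes both no change and a 2-fold rise. Its value was 0.21 without control replicate 3 and 1.13 without control replicate 1, with adjusted p of 0.782 and 0.545 from edgeR.

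**Figure D2:**
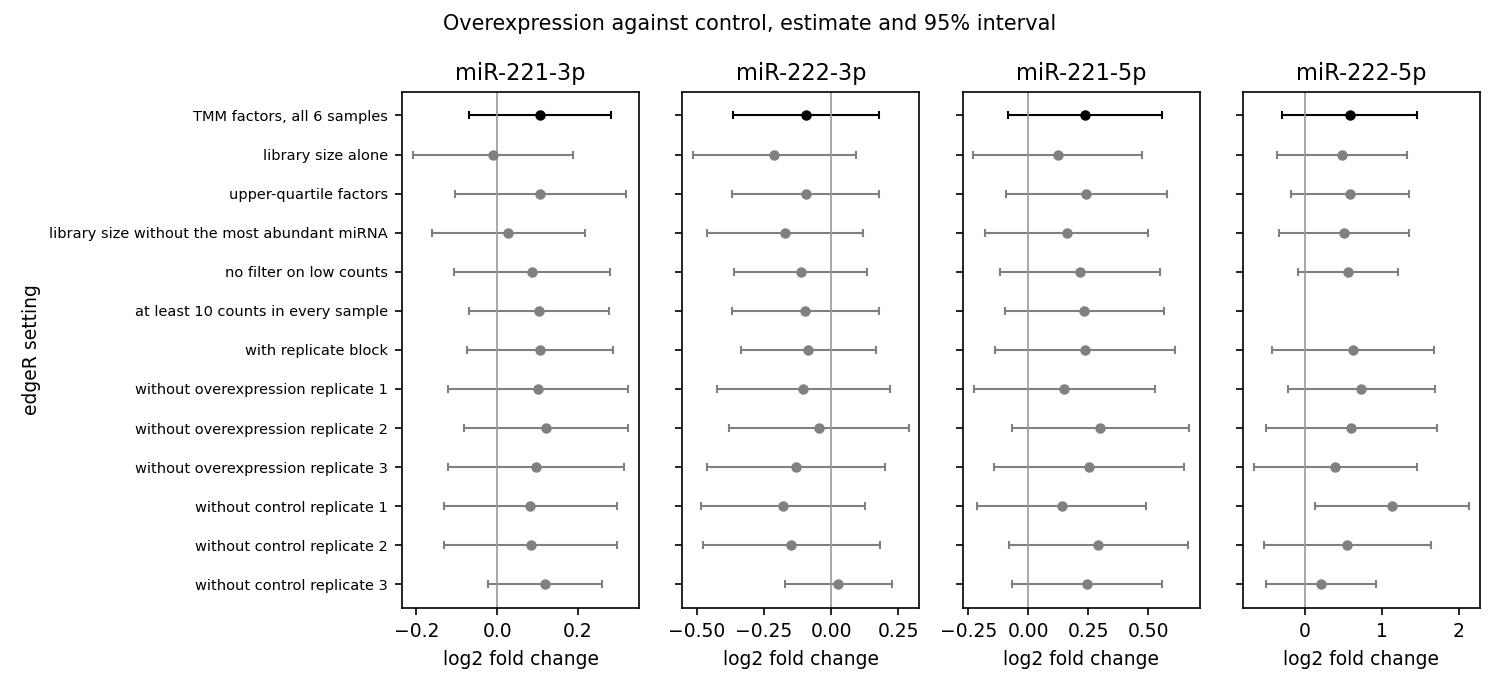
Log2 fold change of each member, overexpression against control, from edgeR under each setting. Points are estimates and bars are 95% confidence intervals, with the values from all 6 samples and TMM factors in black. The horizontal scale differs between panels. All intervals include 0 except that of miR-222-5p without control replicate 1 (0.13 to 2.13), and miR-222-5p has no value where at least 10 counts were required in every sample.

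The members also differed in how much they varied between replicates. The CV of miR-221-3p in TPM was 5.92% with hsa_circ_0098181 and 7.75% with the control plasmid, where counting alone gives 0.874% and 0.843%. miR-222-3p varied by 9.96% and 20.2%, where counting gives 3.58% and 3.25%, and its control value includes the high level of control replicate 3. For miR-221-5p the CV was 14.3% and 12.7%, where counting gives 8.98% and 9.08%. miR-222-5p varied by 24.2% and 60.2%, where counting gives 21.3% and 24.0%, so that the spread in its overexpression samples was close to counting noise, while its control value includes the low level of control replicate 3. The biological CV from edgeR is not the spread of a member alone, since it is drawn towards the values of all miRNAs. It was 10.1% for miR-221-3p, 11.9% for miR-222-3p, 10.2% for miR-221-5p and 24.3% for miR-222-5p. The median over all miRNAs tested was 11.7%. For miR-221-3p it exceeded the CV in TMM-normalized CPM, which was 2.67% with hsa_circ_0098181 and 3.76% with the control plasmid. For no other member did it exceed that CV in both groups.

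Ratios within a library do not depend on its size or its normalization. The ratio of miR-221-3p to miR-222-3p compares the guide strands of the paired hairpins. In replicates 1 to 3 it was 16.7, 17.7 and 16.2 with hsa_circ_0098181, and 16.1, 15.4 and 12.9 with the control plasmid. The groups did not overlap, but the lowest overexpression value and the highest control value, 4.017 and 4.013 on the log2 scale, were closer than their counting errors of 0.051 and 0.047. The log2 ratio was 4.07 ± 0.064 with hsa_circ_0098181 and 3.88 ± 0.17 with the control plasmid (SD, n = 3 each). The difference was 0.19, and its exact permutation p of 0.1 (two-sided) is the smallest that 3 samples against 3 can give. Without control replicate 3 the difference was 0.095 (exact permutation test, p = 0.2, the smallest that 3 against 2 can give).

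The ratio of the arms was computed for each hairpin in the same way. miR-221-3p exceeded miR-221-5p by 94.9, 114 and 109 times in the overexpression samples and by 127, 104 and 116 times in the control samples. The log2 ratio was 6.72 ± 0.14 and 6.85 ± 0.15 in these groups (SD, n = 3 each), and their difference, -0.12, was within the spread (exact permutation p = 0.4, two-sided). miR-222-3p exceeded miR-222-5p by 45.0, 33.0 and 29.5 times in the overexpression samples and by 32.1, 52.8 and 176 times in the control samples. Here the log2 ratio was 5.14 ± 0.32 and 6.06 ± 1.26 (SD, n = 3 each), which differ by -0.92 (exact permutation p = 0.3, two-sided). Adjusted by Benjamini-Hochberg over the 4 permutation tests made, the 3 ratios and the share of the cluster, the exact p-values were 0.4, 0.533, 0.533 and 0.9 in ascending order. The value of 176 is that of control replicate 3 and its 5 counts of miR-222-5p, and without this library the difference was -0.22.

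**Figure D3:**
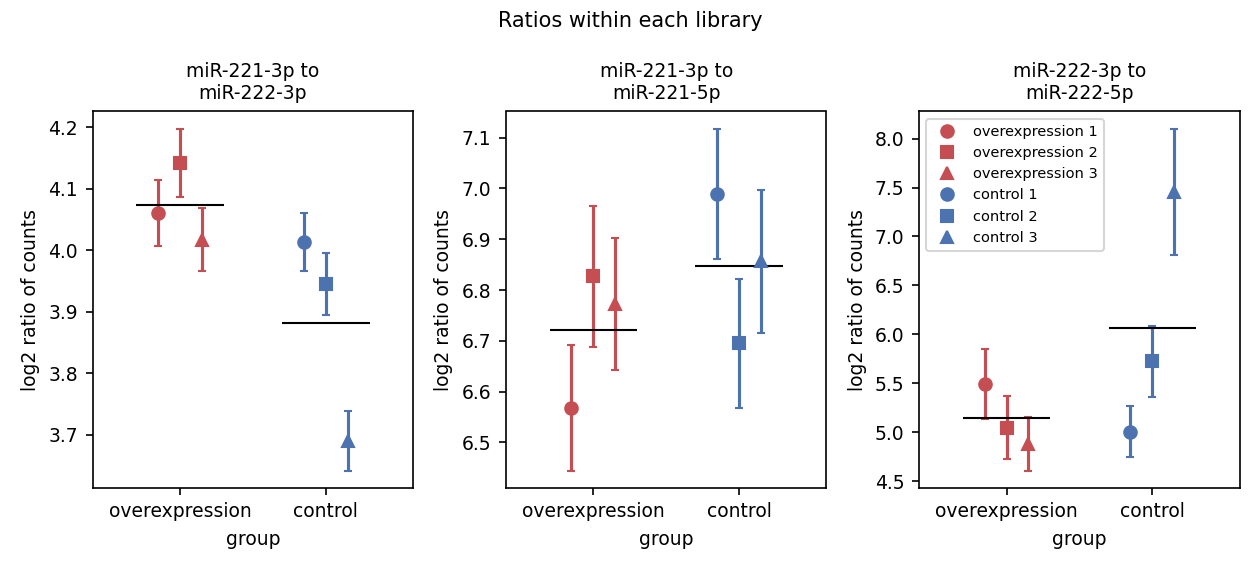
Log2 ratios of counts within each library, with 0.5 added to each count. Points are libraries, bars are the counting standard error and black lines are group means. The groups are separate for miR-221-3p to miR-222-3p, with means of 4.07 and 3.88, and overlap for both arm ratios, and control replicate 3 is the lowest point of the first panel and the highest of the third.

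Among the 838 pairs of arms named in the table, 157 had at least 1000 counts summed over the 6 samples. The 3p product was the major arm in 71 of them and the 5p product in 86. The guide strand took 99.1% of the arm counts of miR-221, which ranked 66 of the 157, and 97.8% for miR-222, which ranked 78. The median over all pairs was 97.7%, so that both hairpins lay near the middle of the arm bias of these libraries.

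**Figure D4:**
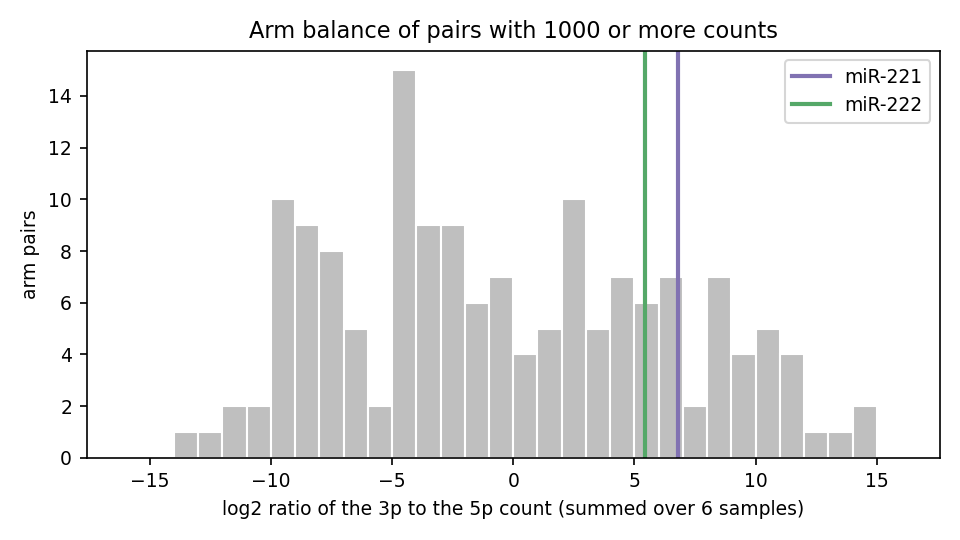
Log2 ratio of the 3p to the 5p count for the 157 arm pairs with at least 1000 counts, summed over 6 samples. Bars count pairs in bins of 1 log2 unit, and the vertical lines mark miR-221 at 6.79 and miR-222 at 5.45, both on the side of a dominant 3p arm.

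The pattern over the 6 samples was compared with that of the other 307 miRNAs of at least 10 mean TPM, by the root-mean-square (RMS) difference of the log2 TMM-normalized CPM after centring each miRNA on its mean. miR-221-3p and miR-222-3p differed from each other by 0.14. This placed miR-222-3p at position 139 of 307 in likeness to miR-221-3p, near the median difference of 0.15, and placed miR-221-3p at position 59 in likeness to miR-222-3p, whose median difference was 0.20. The most like miR-221-3p were miR-185-5p (RMS difference 0.033), miR-425-5p (0.041) and miR-181a-2-3p (0.044). The most like miR-222-3p were miR-532-3p (0.056), miR-23a-3p (0.058) and miR-197-3p (0.059). The RMS difference also depends on how far each miRNA varies, and not on the shape of its pattern alone. These are descriptions over 6 libraries, control replicate 3 included, that share their scaling.

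In centred values, miR-222-3p was 0.30 above its mean in control replicate 3 and between -0.15 and 0.052 in the other samples. miR-221-3p was 0.0087 above its mean in that library, with -0.080 and -0.088 in control replicates 1 and 2. Its overexpression samples were at 0.053, 0.015 and 0.092.

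**Figure D5:**
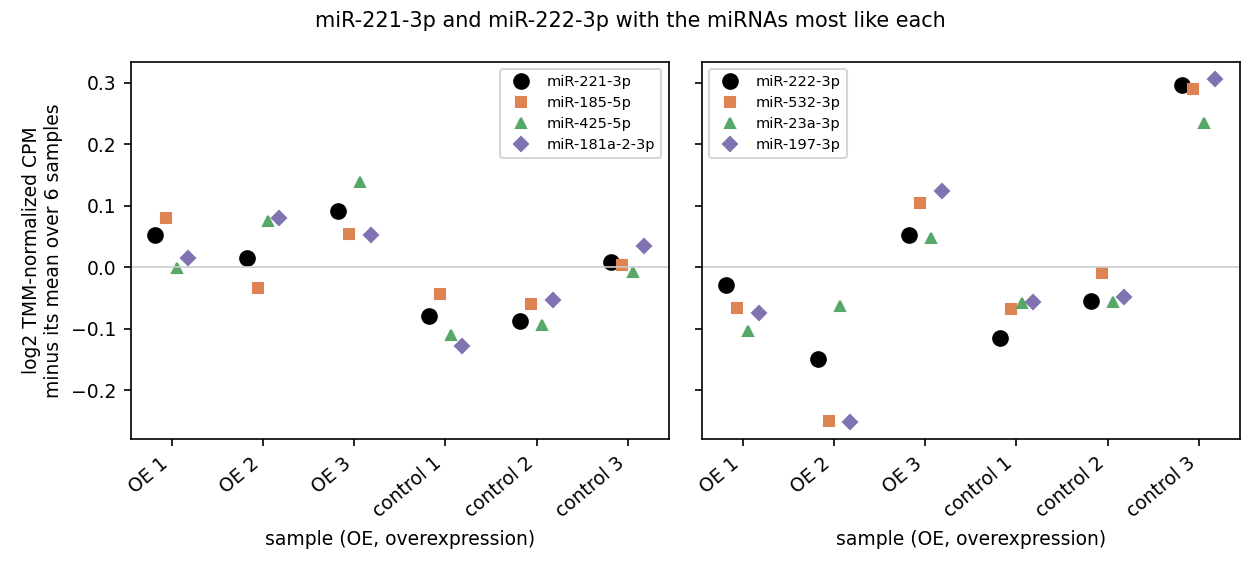
Log2 TMM-normalized CPM minus its mean over the 6 samples, for miR-221-3p (left) and miR-222-3p (right) in black, each with the 3 miRNAs most like it in color. Each point is a library (OE, overexpression). miR-222-3p is high in control replicate 3, at 0.30, while miR-221-3p is at 0.0087 there. The miRNAs most like miR-222-3p are also high there, which follows from how they were picked.

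miRNAs with a related position were read from a list of 19 products of the other miRNA clusters on the short arm of chromosome X, where the cluster also lies. Of these, 15 were tested, 9 higher and 6 lower, against 281 higher and 271 lower over all 552 miRNAs tested. In edgeR, 0 of the 552 had an adjusted p under 0.05, and so 0 of the list. The median log2 fold change was 0.037 after TMM normalization, against 0.0038 over all miRNAs, and -0.079 when only the library size was used. It was 0.093 without control replicate 3, 0.10 without overexpression replicate 3 and -0.039 without control replicate 2. miR-532-5p, the most abundant at 2726 ± 133 TPM with hsa_circ_0098181 and 2393 ± 198 TPM with the control plasmid (SD, n = 3 each), had 0.31 (adjusted p = 0.295 from edgeR) and the smallest unadjusted p. miR-660-5p had 0.17, miR-500a-3p 0.18 and miR-532-3p -0.14. The list ranged from -0.48 for miR-188-3p to 0.52 for let-7f-2-3p. An unadjusted p under 0.05 in edgeR was found for 2 of the 15 tested, against 50 of all 552 miRNAs (9.06%). Of these 2, the one not yet named was miR-188-5p, with -0.45 (edgeR, adjusted p = 0.306). These last 3 miRNAs were singled out after their values were seen.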

How the data were processed

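Small RNA libraries of 3 overexpression and 3 control samples of Huh7 cells were used, grouped by the sample labels. The authors deposited raw counts of reads for each mature miRNA. The deposited TPM equals the count scaled by the library total to within 0.00303. The submitters' processing notes name hg38, TopHat2 2.0.9, Bowtie and TopHat without their roles, and the trimming, the miRNA annotation and the treatment of reads with several matches are not given in the sources used here. These steps set the counts of miRNAs with similar ends.

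The libraries held 7144798 to 10786295 counts. Groups were compared with the two-sided quasi-likelihood test of edgeR 4.0.16 (R 4.3.3) on TMM-scaled counts, over the 552 miRNAs that filterByExpr kept (minimum count 10, minimum total 15), which held 99.98% of the counts. The threshold was an adjusted p of 0.05. Alternatives were DESeq2 1.42.0, limma 3.58.1 on log2 of TPM with 1 or 0.1 added, other scalings and filters, the replicate block and leaving out each sample. Ratios used counts with 0.5 (alternative 5) added and exact permutation tests (SciPy 1.17.1). The fit was checked on simulated counts, where it called 71.6% of the miRNAs changed 1.5-fold and 89.8% of those changed 2-fold. It also called 6 and 2 unchanged miRNAs. Of the miRNAs tested there, 194 of 553 and 196 of 559 were changed, which makes the adjusted threshold easier to pass than where few change. These percentages therefore do not give the sensitivity of the fit in these data. No simulated library stood apart as control replicate 3 does, and changes as small as those of the guide strands were not simulated. Figures were drawn with matplotlib 3.10.9. Intervals on single counts cover counting error only, and no molecular identifiers are named.

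The members, lists and tests were chosen with earlier results of these data known. The miRNAs named are the members, their neighbours by mean TPM, the 4 most abundant of the list of other chromosome X clusters and its smallest unadjusted p, the 3 most like each guide strand and, as a check of the cells, markers of cell types. Others are said to be chosen after their values were seen. Another planned list is not reported here.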

Additional observations from a re-analysis of the deposited data

How the results depend on the processing

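In none of the fits did a member have an adjusted p under 0.05. The log2 fold change of miR-221-3p, 0.11 after TMM normalization, became -0.010 when only the library size was used and -0.0091 in both limma fits on TPM, which use the same scaling, and that of miR-222-3p, -0.093, was 0.027 without control replicate 3. The other alternatives kept the direction of these members, and all of them kept that of miR-221-5p (0.11 to 0.30) and miR-222-5p (0.21 to 1.13). With a sample left out, the 4 members ranged from 0.082 to 0.12 (miR-221-3p), -0.18 to 0.027 (miR-222-3p), 0.14 to 0.30 (miR-221-5p) and 0.21 to 1.13 (miR-222-5p). The 3 ratios kept their direction, with differences of 0.095 to 0.26 for miR-221-3p to miR-222-3p, -0.20 to -0.047 for the miR-221 arms and -1.45 to -0.22 for the miR-222 arms.

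The difference in the share of the cluster, -0.0024 percentage points (overexpression minus control), became 0.0031 without the most abundant miRNA in the total and 0.011 with the TMM effective library size, and -0.0076 to 0.0059 with a sample left out (0.0036 without overexpression replicate 2 and 0.0059 without control replicate 3). The count of miRNAs past the threshold, 0, rose to 3 when only the library size was used and in limma on TPM plus 1, 6 without a filter, and 0 to 56 with a sample left out (56 without control replicate 3). The median of the chromosome X list was -0.079 when only the library size was used, -0.042 without the most abundant miRNA, -0.080 and -0.083 with limma (1 and 0.1 added), and -0.039 to 0.10 with a sample left out (0.093 without control replicate 3). The causes were not tested.

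Shared replicate numbers were not taken as a pairing of the samples. The rule asked that the deviations of same-numbered samples correlate by over 0.1 for all 3 numbers. They correlated by -0.20, 0.19 and 0.15 over 295 miRNAs. With 3 samples per group and control replicate 3 apart, this cannot exclude a pairing. With the replicate block, the log2 fold changes were 0.11, -0.085, 0.24 and 0.63 for miR-221-3p, miR-222-3p, miR-221-5p and miR-222-5p, and 0 miRNAs were called (42 unadjusted).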
